A study of Mus musculus with 4 samples.

Results

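The 35 genes described here encode the kinases, adaptors, enzymes and regulators that act next to the T cell receptor, and the data are lists of peaks from streptavidin pull-downs of PLZF in mouse thymocytes. The genes were chosen by name for their role, with earlier results of these data known. A peak was counted for a gene when its midpoint lay in the RefSeq gene body or within 20 kb on either side, called its reach. All 35 were found among 21887 protein-coding nuclear genes. Within their reach lay 71 of the 5198 peaks of 1 list and 48 of the 4246 peaks of the other.

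PLZF, encoded by Zbtb16, is a BTB zinc finger transcription factor that directs the effector program of natural killer T cells. Every mouse carried a PLZF transgene together with a transgene for BirA, the bacterial ligase that attaches biotin, on a C57BL/6 background. The PLZF/BirA list came from thymocytes of PLZF tg/BirA tg mice. The NKT list came from thymocytes of PLZF tg/BirA tg/Valpha14 tg mice, which in addition had a Valpha14 transgene, the receptor chain that invariant NKT cells use. The labels give neither ages, sorting, the number of animals nor the promoters of the transgenes, and NKT is used here as the name of a library. There was 1 pull-down library per group, and 2 further input libraries are not analysed. No difference between the lists has a replicate check, and no p-value is given. The samples hold no pull-down from PLZF-negative mice, so a peak need not be a PLZF site. Peak lists measure no RNA, so the labelled cell type could not be checked by marker expression. In a mixed population, a peak in few cells and weak occupancy in many cells cannot be told apart.

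Signalling by the T cell receptor begins when the Src family kinases Lck and Fyn phosphorylate the CD3 and zeta chains, to which the kinase Zap70 then binds. Zap70 phosphorylates the scaffolds Lat and Lcp2 (SLP-76), on which Tec family kinases, Plcg1, Vav proteins and Ras exchange factors assemble. The pathway is opposed at each step by kinases, phosphatases, ubiquitin ligases and lipid kinases, and its strength decides selection and lineage choice in the thymus.

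At the promoters of 5 members, both lists placed a peak over the annotated transcription start: Lck and Zap70 among the kinases, Lcp2 and Themis among the adaptors, and Ubash3a among the restraining regulators. The 250 bases before the start are printed for the first 4, as promoter sites common to both libraries. They are RefSeq sequences of GRCm38.p6 (the mm10 assembly), 5′ to 3′ on the strand of the gene. Capitals mark the letters of 6 motifs searched on both strands: ETS GGAAGT, RUNX TGTGGT, E box CAGCTG, TCF CTTTGA, SP GGGCGG and CRE TGACGT.
Lck, chr4:129573642-129573891, minus strand: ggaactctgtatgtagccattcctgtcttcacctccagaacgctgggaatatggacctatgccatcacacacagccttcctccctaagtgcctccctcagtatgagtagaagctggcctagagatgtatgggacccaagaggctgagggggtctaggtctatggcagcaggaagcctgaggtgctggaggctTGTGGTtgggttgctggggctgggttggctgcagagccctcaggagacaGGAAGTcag
Zap70, chr1:36761548-36761797, plus strand: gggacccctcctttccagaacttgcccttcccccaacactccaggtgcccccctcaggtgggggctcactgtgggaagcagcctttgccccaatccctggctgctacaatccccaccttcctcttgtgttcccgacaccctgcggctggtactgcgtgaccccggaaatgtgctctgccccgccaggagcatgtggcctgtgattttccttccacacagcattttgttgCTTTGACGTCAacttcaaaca
Lcp2, chr11:34046678-34046927, plus strand: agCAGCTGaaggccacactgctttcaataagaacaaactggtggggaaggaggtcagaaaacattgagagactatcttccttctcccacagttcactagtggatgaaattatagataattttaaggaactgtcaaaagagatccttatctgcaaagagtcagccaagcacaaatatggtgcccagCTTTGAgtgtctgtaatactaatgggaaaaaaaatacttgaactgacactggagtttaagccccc
Themis, chr10:28668110-28668359, plus strand: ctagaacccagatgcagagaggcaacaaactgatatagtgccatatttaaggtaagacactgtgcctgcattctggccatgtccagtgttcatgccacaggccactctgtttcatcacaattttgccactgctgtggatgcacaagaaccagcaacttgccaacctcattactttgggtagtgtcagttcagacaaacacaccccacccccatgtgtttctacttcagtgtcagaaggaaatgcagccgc

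The Lck sequence held an ETS match that began 9 bases before the start and a RUNX match 58 bases before it. In windows of this length, these letters occurred in 19.7% and 14.0% of the 32851 promoters of the table. The Zap70 sequence held a TCF match at 21 bases and overlapping CRE matches on opposite strands at 18 and 16 bases before the start, against 13.8% and 6.47% of promoters. TCF and CRE matches overlap there. The Lcp2 sequence held an E box match at 248 bases and a TCF match at 65 bases, the E box against 13.0% of promoters, and the Themis sequence held none of the 6. No motif was common to all 4 sequences. Of the printed bases, the peaks of the PLZF/BirA list covered 233 at Lck, 204 at Zap70 and all 250 at Lcp2 and Themis. The NKT peaks covered 236, 171, 226 and 250. The Ubash3a window lies partly inside the gene and is not printed.

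Most of the 35 genes had a peak within reach in each library. In the PLZF/BirA list 27 of them did (77.1%), beside 19.8% of all protein-coding genes. In the NKT list 25 did (71.4%), beside 16.9%. Both lists had a peak at 22 members, where 12.4% of all genes had one in both. At 21 members, a PLZF/BirA and an NKT peak overlapped by at least 1 bp, beside 10.8% of all genes. Vav1 was the member with a peak in both lists at different places. The members have longer reaches than most genes, with a median of 91.8 kb against 57.2 kb. Among the 19195 genes within the members' range of reach lengths, 21.4% had a PLZF/BirA peak and 18.1% an NKT peak. With all genes split into 4 equal classes by reach, the shares rose from 11.9% and 10.4% in the shortest class over 20.2% and 16.2%, then 21.7% and 18.5%, to 25.6% and 22.3% in the longest. The members with a peak in these classes were 1 and 1 of 1, 4 and 5 of 5, 5 and 4 of 6, and 17 and 15 of 23. The density of gene and peak pairs was 1.76 per 100 kb of reach in the PLZF/BirA list and 1.17 in the NKT list, beside 0.361 and 0.292 over all protein-coding genes. A peak within reach of neighbouring genes counts for each of them.

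Kinases, adaptors and restraining regulators had peaks at most of their genes, and effectors at 4 of 8 in each list. All 5 kinases had one in the PLZF/BirA list and 4 in the NKT list. Of the 10 adaptors, 9 and 7 had one. The effectors are the phospholipase, exchange factors, kinase and scaffold proteins that pass the signal on, and Prkcq was the 1 effector with overlapping peaks. Among the 12 restraining regulators 9 and 10 had one, and 9 had an overlapping pair. Peaks at effectors also had low scores, with a median of 79.9 over 8 PLZF/BirA peaks and 60.6 over 7 NKT peaks. The medians of the other steps ranged from 110.0 to 134 and from 104 to 139. These medians are over peaks and not over genes. Prkcq held 4 of the effector peaks in each list, and Sla held 10 and 5 of those at restraining regulators. These counts are small and the difference between steps was not tested.

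**Figure D1:**
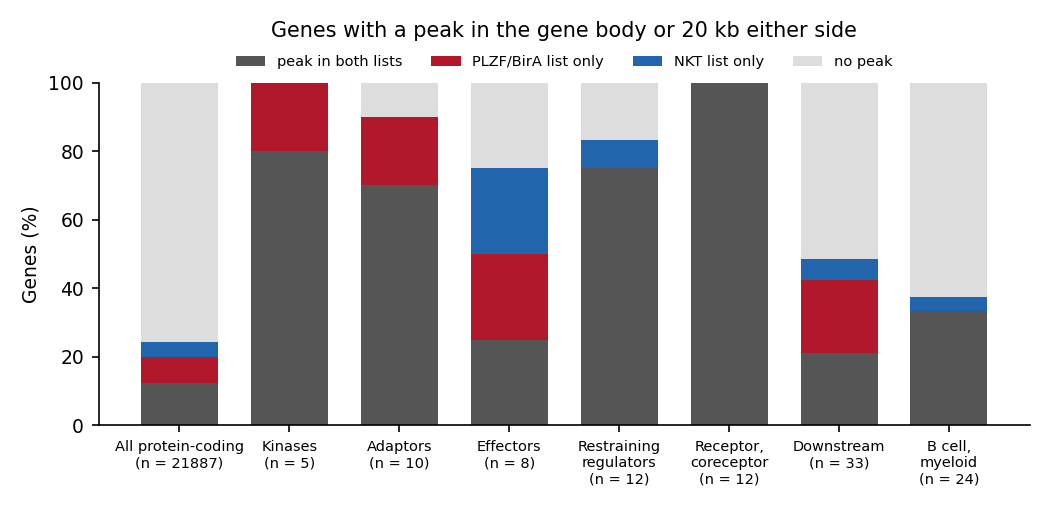
Bars show the percent of genes in each group with a peak in both lists, in 1 list only or in neither, for all 21887 protein-coding genes, the 4 steps of the pathway and 3 other gene lists, with the number of genes under each bar. A peak in both lists was present at 4 of 5 kinases, 7 of 10 adaptors, 2 of 8 effectors and 9 of 12 restraining regulators.

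The score given with each peak is the authors' own value. It is used here only to rank peaks within a list, as the percent of that list which scored as high or higher ("top 5%"), and 2 scores set side by side do not measure a change between the libraries. Among the kinases, the highest-scoring sites of the PLZF/BirA list lay between the starts of Txk and Tec, a neighbouring pair of Tec family kinase genes on chromosome 5. A PLZF/BirA peak of score 407 (chr5:72762580-72763053, top 7.54%) overlapped an NKT peak of score 133 (chr5:72762581-72762934, top 23.1%). A second pair at chr5:72761152-72761802 and chr5:72761383-72761608 had scores of 365 (top 9.45%) and 105 (top 32.5%). Both pairs lie inside the downstream part of Tec, over 100 kb from the annotated Tec start and 8.7 to 10 kb upstream of the Txk start, and the same peaks count for both genes. The PLZF/BirA list also had a peak over the Txk start itself (chr5:72752440-72753172, score 273, top 15.5%), where the NKT list had none, and a weak one of score 51.7 inside Tec.

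Lck, the kinase that starts signalling, has a distal and a proximal start about 15 kb apart in RefSeq, and the lists differed at the proximal one. Over the distal start, at the outer end of the gene, both lists had a peak (chr4:129573554-129573874, score 121, top 45.9%, and chr4:129573535-129573877, score 127, top 24.7%), with midpoints 8.0 bp apart. Over the proximal start the PLZF/BirA list had a peak of score 178 (chr4:129558264-129558943, top 29.9%) and the NKT list had none. Another PLZF/BirA peak of score 80.3 lay 1.63 kb upstream of the distal start. Lck promoter fragments are often used to drive transgenes in thymocytes, and reads from such a transgene and from the Lck locus cannot be told apart in a peak list. Without Lck, 26 and 24 of 34 members had a peak.

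Zap70, the kinase recruited to the phosphorylated receptor, had a pair of peaks at its start. The PLZF/BirA peak (chr1:36761594-36762048) had a score of 134 (top 41.6%) and the NKT peak (chr1:36761627-36761871) a score of 74.1 (top 49.8%). A second pair, with scores of 140.25 and 160.49, the latter the highest NKT score among the kinases, lay 14.9 kb beyond the end of the gene inside Tmem131, and a PLZF/BirA peak of score 85.2 lay 17.0 kb upstream inside 4933424G06Rik. Fyn, the second Src family kinase of thymocytes, had 1 peak, of score 57.3 (top 87.8%) in the PLZF/BirA list, inside the gene 133 kb from its annotated start. The nearest NKT peak was 47.6 kb outside Fyn.

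The highest-scoring peak over a promoter window was at an adaptor gene in each list. Lcp2 encodes SLP-76, the scaffold that joins Vav, Nck and Plcg1 to Lat. At its start the PLZF/BirA list had a score of 298 (chr11:34046659-34047335, top 13.3%) and the NKT list a score of 290.1 (chr11:34046702-34047228, top 5.96%). A pair inside the gene, 17.3 kb from the start, had scores of 262 (chr11:34064005-34064510) and 220.2 (chr11:34064028-34064414). Another pair at chr11:34077892-34078594 and chr11:34078024-34078225, about 31 kb from the start, scored 298.75 (top 13.3%) in the PLZF/BirA list and 57.2 (top 72.1%) in the NKT list. So the order of the 3 Lcp2 sites differed within the lists: the internal site farthest from the start was level with the promoter in the PLZF/BirA list and the weakest shared site in the NKT list. Weaker peaks in 1 list only scored 63.3 and 50.8 in the PLZF/BirA list and 71.1 in the NKT list. A noncoding gene, 4930469K13Rik, overlaps all of these sites.

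Among the other adaptors of the Lat complex, Grap2 and Grb2 had peaks near their outer ends, Lat had a pair some kilobases away and Nck1 had none. Grap2 encodes GADS, which links SLP-76 to Lat. It had a pair of peaks 0.153 and 0.17 kb before the 5′ end of its RefSeq span, with a PLZF/BirA score of 403 (chr15:80572050-80572837, top 7.7%) and an NKT score of 193 (chr15:80572198-80572657, top 12.9%). A PLZF/BirA peak of score 134 lay beside this pair, 0.919 kb before the same end, and overlapped no NKT peak. Single peaks of scores 64.3 and 53.5 in the PLZF/BirA list and of 68.6 in the NKT list lay elsewhere within reach. The pair counted for Lat lay 7.95 and 8.05 kb upstream of the start, inside Spns1, with scores of 131 (chr7:126377329-126377699) and 162 (chr7:126377446-126377785, top 16.6%). Grb2, the adaptor that brings Sos1 to Lat, had 2 pairs just beyond its 3′ end, with scores of 99.6 and 196 in the PLZF/BirA list, against 104 and 50.1 in the NKT list. The higher site thus differed between the lists. A PLZF/BirA peak of score 146 lay 0.694 kb beyond the 5′ end of Grb2, where the NKT list had none. The remaining Grb2 peaks scored 63.6 and 52.6 in the PLZF/BirA list and 58.2 in the NKT list. Nck1, an adaptor that ties the receptor to actin, had no peak, and the nearest lay 33.9 kb (score 227) and 33.8 kb (score 74.5) away, closer to Il20rb.

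Themis and Tespa1, adaptors needed for positive selection of thymocytes, had unlike patterns. Themis had 1 peak in each list over its start, with scores of 271 (chr10:28668036-28668673, top 15.9%) and 139 (chr10:28667978-28668395, top 21.1%). Tespa1 had a PLZF/BirA peak of score 267 (chr10:130322484-130322978, top 16.1%), with its midpoint 0.095 kb outside 1 end of the gene. Another, of score 87.2, lay at 9.16 kb. Tespa1 had no entry in the promoter table, so whether this end is its start was not given. The NKT list had none within reach of Tespa1, and its nearest lay 1580 kb away. Tespa1 held the highest score among the 5 members with a peak only in the PLZF/BirA list (Fyn, Tespa1, Skap1, Plcg1 and Malt1), a class that held 7.49% of all protein-coding genes.

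Trat1 and Sh2d2a had single strong pairs. Trat1 encodes TRIM, a transmembrane adaptor of the receptor complex. Its pair lay inside the gene, 16.8 kb upstream of the one annotated start in the promoter table, with scores of 328 (chr16:48788533-48789187, top 11.4%) and 280.04 (chr16:48788590-48789131, top 6.59%), and the midpoints were 0.5 bp apart. Sh2d2a encodes TSAd, an adaptor that binds Lck. Its pair sat on 1 end of the gene, with scores of 465 (chr3:87846269-87847240, top 6.04%) and 245.8 (chr3:87846509-87847156, top 8.64%), and a second PLZF/BirA peak of score 170.1 lay 1.08 kb inside. Skap1, an adaptor for integrin activation, had 3 PLZF/BirA peaks, with scores of 81.9, 52.4 and 64.3, and no NKT peak within reach. An NKT peak of score 116 lay 22.8 kb from Skap1, just beyond the limit.

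**Figure D2:**
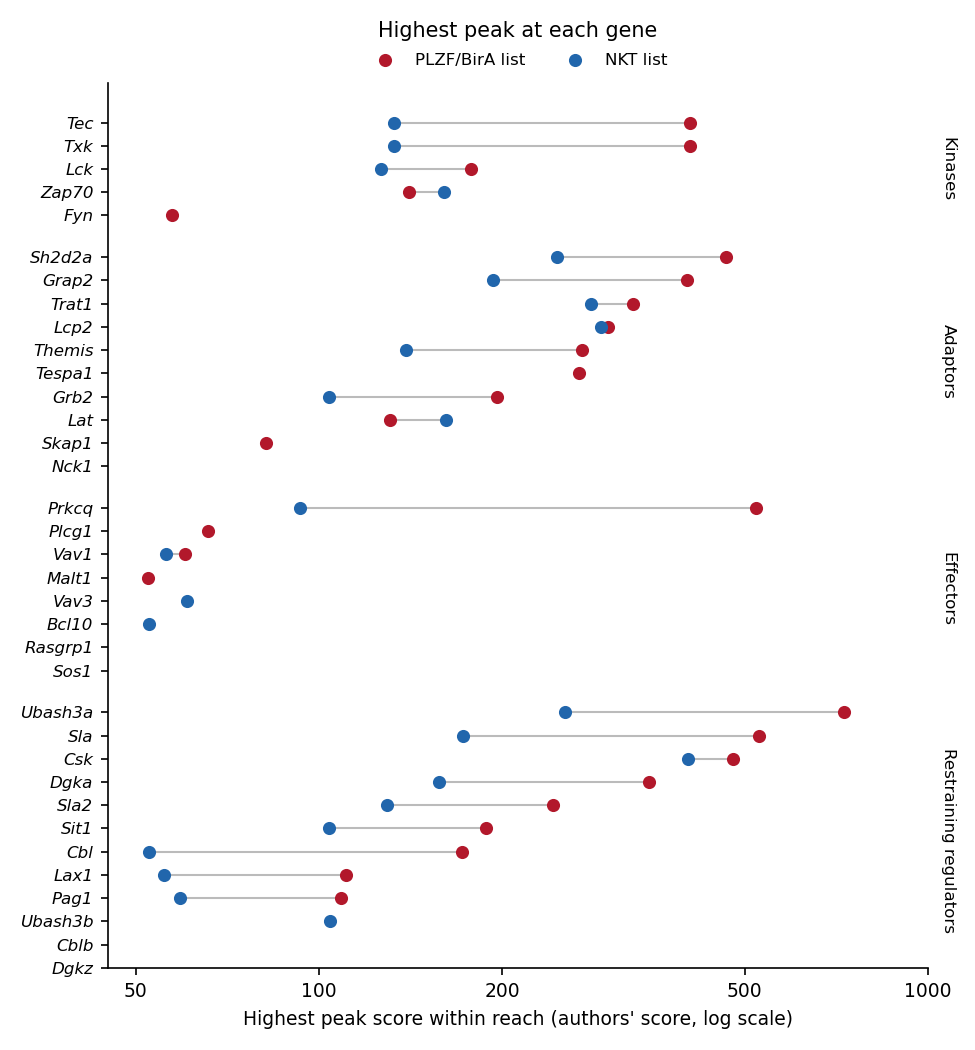
Points give the highest peak score within reach of each of the 35 genes in the PLZF/BirA list (red) and the NKT list (blue), on a log axis, with genes grouped by step and a grey line joining the points of 1 gene. A gene without points had no peak. Apart from Prkcq, with 523 and 93.2, the effectors stayed below 66, while Ubash3a reached 729 in the PLZF/BirA list and Csk 404 in the NKT list.

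Among the effectors, Prkcq, the protein kinase C theta that leads to NF-kB, was the member with strong peaks. A PLZF/BirA peak of score 523 (chr2:11193115-11193772, top 4.92%) lay inside the gene 21.1 kb from the start and overlapped 2 NKT peaks, of scores 93.2 (chr2:11193235-11193530, top 37.9%) and 63.4 (chr2:11193576-11193758). A second PLZF/BirA peak of score 178, 32.0 kb from the start, overlapped another 2 NKT peaks of scores 59.7 and 74.6. In both places the NKT list thus had a pair of narrow peaks where the PLZF/BirA list had a wide one. A PLZF/BirA peak of score 261 (chr2:11159616-11160348, top 16.8%) 12.4 kb upstream and one of 94.0 near the start had no NKT counterpart.

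The other effectors had weak peaks or none. Plcg1, the phospholipase that releases calcium and diacylglycerol messengers, had PLZF/BirA peaks of scores 65.7 and 54.8 within 3.17 kb of its start. Vav1, an exchange factor that acts on the actin cytoskeleton, had a PLZF/BirA peak of 60.3 lying 3.47 kb upstream of its start and an NKT peak of 56.1 lying 0.664 kb downstream. Vav3, its relative, had an NKT peak of 60.6 inside the gene. Bcl10 and Malt1, which form the complex that activates NF-kB, had 1 weak peak each, the first in the NKT list (52.6, at 16.2 kb) and the second in the PLZF/BirA list (52.3, at 3.48 kb). These peaks held places between the top 66.2% and the top 95.5% of their lists. No peak lay within reach of Rasgrp1 or Sos1, the exchange factors that activate Ras. The nearest ones to Rasgrp1 were 30.3 and 56.7 kb away, and those to Sos1 141 and 186 kb.

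The highest PLZF/BirA score of all members belonged to Ubash3a, which encodes the phosphatase-like protein STS-2 that dampens Zap70 signalling. It reached 729 (chr17:31223698-31224395, top 2.14%), overlapped an NKT peak of 254 (chr17:31223817-31224291, top 7.87%) with midpoints 7.5 bp apart, and lay 16.0 kb inside the gene. A weaker pair over the start scored 97.5 and 77.7, and single peaks scored 75.8 in the PLZF/BirA list and 51.1 in the NKT list. Its relative Ubash3b (STS-1) had an NKT peak of score 104 (chr9:41080944-41081250, top 32.5%) 1.59 kb upstream of an internal start, and no PLZF/BirA peak. With Vav3 and Bcl10, Ubash3b formed the 3 members with a peak only in the NKT list, a class that held 4.52% of all genes.

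Csk, the kinase that phosphorylates the inhibitory tyrosine of Lck and Fyn, had the highest NKT score of all members. A wide PLZF/BirA peak of score 478 (chr9:57647457-57648247, 791 bp, top 5.69%) overlapped 2 NKT peaks, of scores 404 (chr9:57647804-57648220, top 2.94%) and 297 (chr9:57647355-57647740, top 5.7%). The site lies inside the gene about 2 kb upstream of an internal start. Each list had 2 further weak peaks inside Csk, with scores of 69.1 and 50.1 and of 58.2 and 71.4, and none of these overlapped. Pag1 encodes the membrane adaptor that anchors Csk. Its single overlapping pair lay 19.5 kb from the gene, near the limit of the reach, with scores of 91.8 and 50.2, and the other peaks scored 109 in the PLZF/BirA list and 59.1 in the NKT list.

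Sla had the most peaks of any member, 10 in the PLZF/BirA list and 5 in the NKT list. Neighbouring peaks were not merged and some lay close together, so these need not be 10 and 5 separate sites. At least 5 peaks were present at 3 members (Lcp2, Grb2 and Sla) and 1 member (Sla), and at 0.58% and 0.32% of all genes. The lowest Sla scores were 57.2 and 99.7. Sla encodes SLAP, which brings the ubiquitin ligase Cbl to the receptor and lowers its level on thymocytes. The gene lies inside the thyroglobulin gene Tg, and every one of these peaks lay inside Tg as well. The highest PLZF/BirA peak, of score 528 (chr15:66801294-66801978, top 4.81%), overlapped an NKT peak of 172 (chr15:66801410-66801812, top 15.2%). Each of the 5 NKT peaks overlapped a PLZF/BirA peak. At the end of the gene near chr15:66832136-66832405 the places within the lists were turned around, with an NKT score of 157 (top 17.4%) at a PLZF/BirA score of 75.8 (top 71.5%). PLZF/BirA peaks of scores 326 and 311 (top 11.5% and 12.4%) inside the gene overlapped no NKT peak. The one of 311 (chr15:66825156-66825915) began just beyond an NKT peak of score 172 (chr15:66824573-66825034), so it need not be a separate site. Sla2, the related SLAP-2, had a pair inside the gene with scores of 242 and 84.2, a PLZF/BirA peak of 50.6 beside it, and an NKT peak of score 129 over its start (chr2:156887004-156887396, top 23.9%) where the PLZF/BirA list had none.

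**Figure D3:**
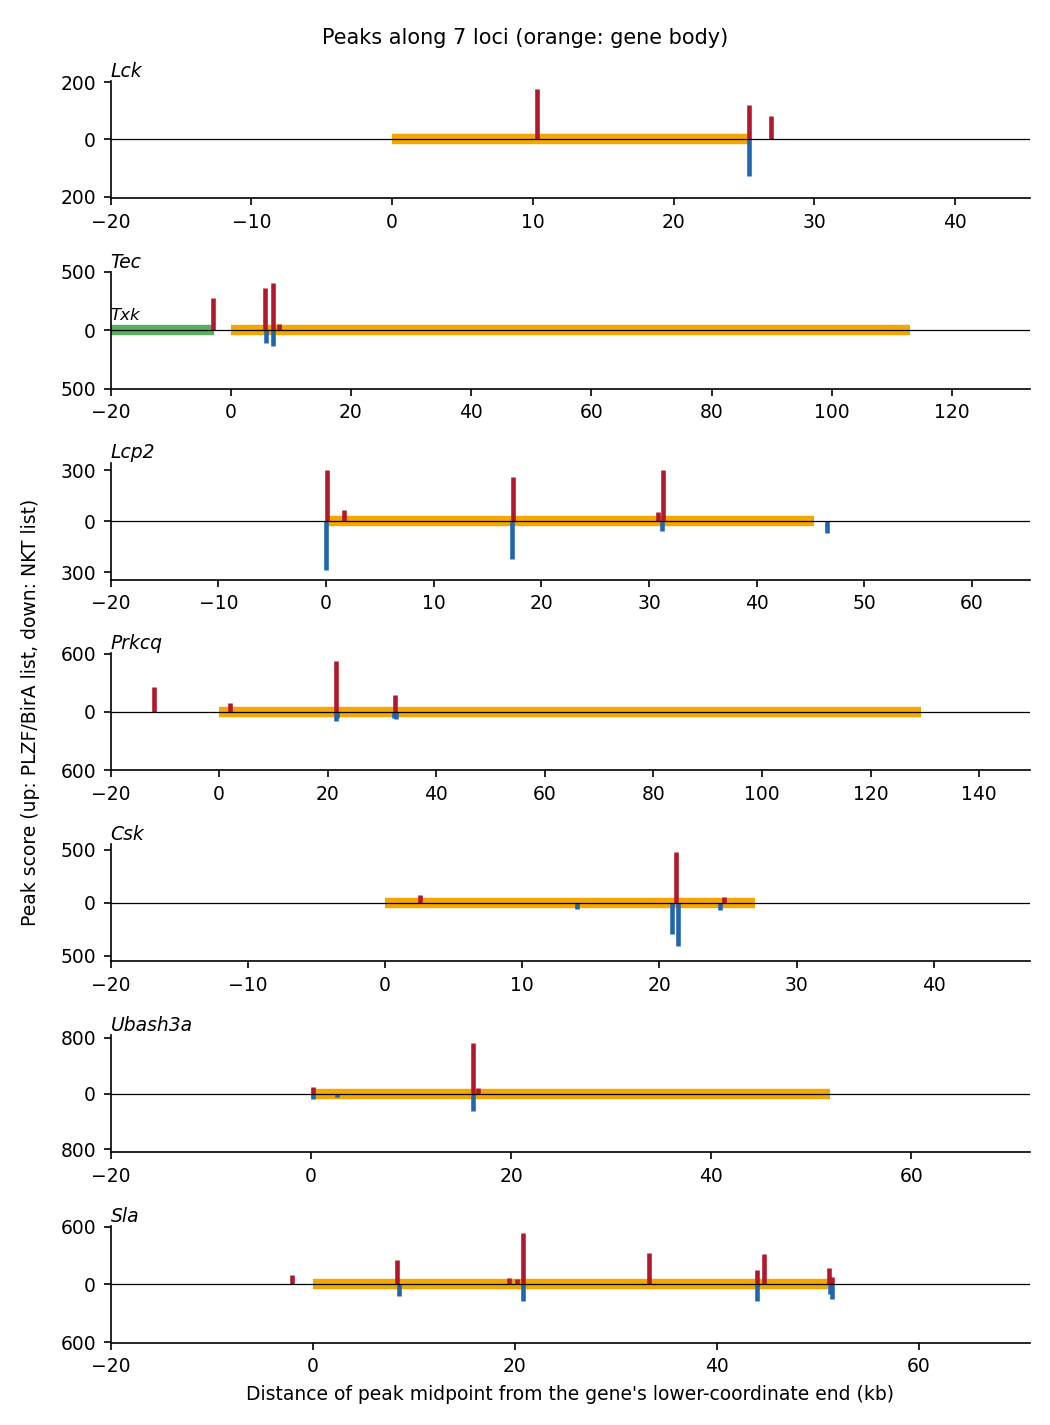
Peaks along 7 loci, plotted by the distance of the midpoint from the end of the gene with the lower coordinate (kb), with bars up for the score in the PLZF/BirA list and down for the NKT list, orange for the gene body and green for the neighbouring Txk. Strong sites of both lists coincide at Lcp2, Csk, Ubash3a and Sla, while the proximal Lck start, the Txk start and the upstream site of Prkcq have bars in the PLZF/BirA list alone.

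The remaining restraining regulators had peaks within 10 kb of the gene or none. Dgka encodes a diacylglycerol kinase that removes the messenger made by Plcg1. It had a PLZF/BirA peak of score 348 (chr10:128745833-128746723, top 10.3%) 1.19 kb upstream of its outermost start, which overlapped NKT peaks of 104 and 158, and a PLZF/BirA peak of 104 inside Pmel. Dgkz, which encodes a second diacylglycerol kinase, had no peak within reach, and the nearest lay 203 and 283 kb away. Cbl, a ubiquitin ligase, had a weak pair 0.51 and 0.603 kb upstream of its start (scores of 52.3 and 52.6) and a PLZF/BirA peak of 172 at 4.61 kb, nearer to Ccdc153. Its relative Cblb had none, with the nearest at 224 kb in the PLZF/BirA list and 1550 kb in the NKT list. Sit1 and Lax1 encode transmembrane adaptors that restrain receptor signalling. Sit1 had PLZF/BirA peaks over its start (126, chr4:43483636-43484081) and at its other end (94.2), where the NKT list had none, and both lists had peaks 9.3 kb upstream at the noncoding gene Rmrp (188 against 104 and 57.6). Lax1 had a pair near an internal start, with scores of 111 and 55.6. Nck1, Rasgrp1, Sos1, Cblb and Dgkz were the 5 members without a peak in either list, a state that held for 75.6% of all protein-coding genes.

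Members often had several peaks, counted singly even where they lay close together, so a count of peaks is not a count of separate sites. The peaks of all genes were counted in the same way. At least 2 lay within reach of 20 members in the PLZF/BirA list and of 14 in the NKT list, beside 6.83% and 5.33% of all genes. At least 3 lay within reach of 13 members in the PLZF/BirA list and of 6 in the NKT list, beside 2.7% and 1.96% of all genes. The 6 were Lcp2, Grb2, Prkcq, Csk, Ubash3a and Sla, which are also among the 13. At least 4 lay at 7 and 4 members, beside 1.23% and 0.781%. Of gene and peak pairs, 52.0% in the PLZF/BirA list and 58.0% in the NKT list had the peak inside the member, where this held for 40.5% and 40.2% over all protein-coding genes. A longer gene has a larger part of its reach inside the gene, and the members' median reach was 91.8 kb against 57.2 kb. None of these counts and shares was matched for length, so no excess inside the members can be read from them. The midpoint lay within 1 kb of an end of the member in 22.7% and 28% of the pairs, beside 15.5% and 16.2%. A peak touched a promoter window, reaching from 250 bases before to 50 after an annotated start, at 8 of the 29 members with an entry in the promoter table in the PLZF/BirA list and at 6 in the NKT list. Over all genes with an entry these shares were 3.28% and 2.42%. The same window was touched in both lists at 5 members, beside 1.43% of genes.

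NKT peaks at the members were mostly also PLZF/BirA sites, and the reverse held for fewer, as in the whole lists. Of the 48 NKT peaks 36 lay over one from the PLZF/BirA list, or 75% (exact 95% interval 60.4 to 86.4%, for counting error only), where the whole NKT list had 60.7%. Of the 71 PLZF/BirA peaks 31 overlapped an NKT peak, 43.7% (31.9 to 56.0%), where the whole list had 45.7%. Some of these 31 overlapped more than 1 NKT peak, so the 36 NKT peaks are not 36 separate sites. The shared share was highest among the best-scoring peaks. In the top 25% of each list by score, 17 of 18 NKT peaks and 16 of 21 PLZF/BirA peaks at the members were shared, beside 95.2% and 84.8% in the whole lists. In the next 25% these were 11 of 12 and 9 of 15, beside 73.7% and 50.9%, and in the one after it 4 of 11 and 5 of 15, beside 42.9% and 31.1%. In the lowest 25% 4 of 7 and 1 of 20 were shared, beside 31.2% and 15.8%, so the share at the members did not fall at every step in the NKT list. The median score was 121 at the members and 111 in the whole PLZF/BirA list, and 102 and 73.8 in the NKT list. Peaks in the upper 50% of their list by score made up 50.7% of the members' PLZF/BirA peaks and 62.5% of their NKT peaks.

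Places in the lists differed at many overlapping sites. The 36 overlapping pairs, whose midpoints must lie close because pairs were chosen by overlap, had midpoints a median of 71.5 bp apart (range 0.5 to 304.5 bp), beside 63.5 bp over all 2603 pairs of the series. In 31 of the 36 the wider peak was that of the PLZF/BirA list, with median widths of 577.5 and 296 bp, and 91.1% of all pairs had this order. The NKT peak held the higher place in its list in 12 of the 36 (33.3%), beside 42.0% of all pairs. These 12 included the promoter of Lcp2 and its site 17.3 kb inside, the pairs at Lat and Trat1, the distal start of Lck and the stronger Csk peak. The places differed most the other way at a Grb2 pair beyond the 3′ end (top 26.2% and 99.6%), at the Lcp2 site farthest inside (13.3% and 72.1%) and at a Prkcq pair (4.92% and 61.8%). Scores correlated across the 36 pairs with a Spearman coefficient of 0.465, and across all pairs with 0.525. This is a correlation across sites of the same 2 libraries, and some pairs share a PLZF/BirA peak.

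**Figure D4:**
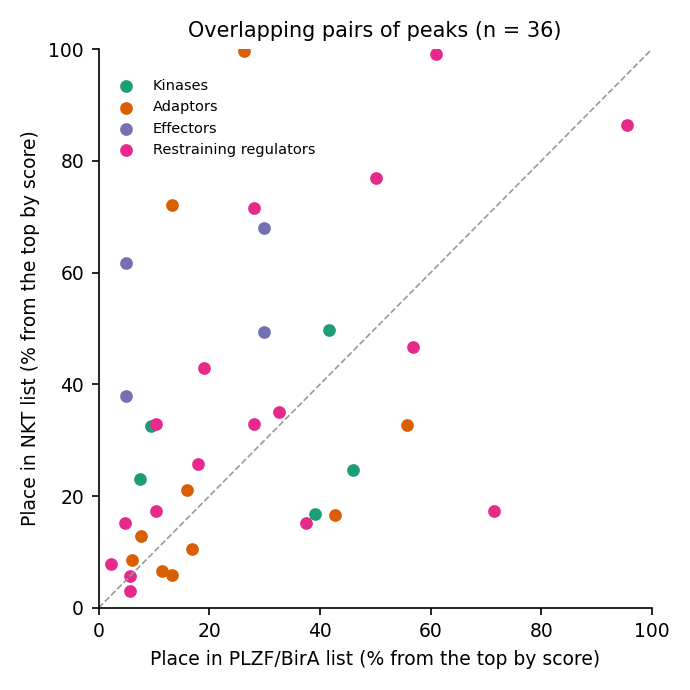
Each of the 36 points is an overlapping pair of peaks at a member, placed by its rank in the PLZF/BirA list (horizontal) and in the NKT list (vertical) as a percent from the top by score, with colours for the steps of the pathway. The 12 points below the dashed line of equal places rank higher in the NKT list.

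Receptor genes had peaks more often than the members, and downstream genes less often, by count alone. All 12 genes of a list of receptor chains, coreceptors and their regulators had a peak in both lists. Their density was 6.11 and 5.67 gene and peak pairs per 100 kb. A peak within reach of neighbouring genes counts for each of them, as does the top peak of the Cd3d, Cd3e and Cd3g cluster. The highest PLZF/BirA scores were at the coreceptor genes Cd4 (2245, against 1158 in the NKT list) and Cd8a (1137 and 446) and at this cluster (1043 and 505). Of 33 downstream genes of the calcium, MAP kinase and NF-kB branches, 14 had a PLZF/BirA peak and 9 an NKT peak. An overlapping pair was present at 4 of the 33, beside 10.8% of all protein-coding genes. Nfatc3, a calcium-regulated transcription factor gene, had top scores of 516 and 303, and Itpr1, which encodes a calcium release channel, of 258 and 139. Of 24 genes of receptor signalling in B and myeloid cells, 8 and 9 had a peak, and 7 had an overlapping pair. Their density was 0.397 gene and peak pairs per 100 kb in each list, beside 0.361 and 0.292 over all protein-coding genes. The highest PLZF/BirA scores were at Tyrobp (649, against 380 in the NKT list), Cd79b (295 and 116) and Blk (271 and 125). The share of genes with a peak was thus 100% for the receptor list, 77.1% and 71.4% for the members, 42.4% and 27.3% for the downstream list and 33.3% and 37.5% for the B and myeloid list. Over all protein-coding genes it was 19.8% and 16.9%. Peak lists hold no expression values, and the lists were not matched for it.

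The share of members with a peak moved with the reach, and so did that of all genes. Counting gene bodies alone left 19 of the 35 members with a PLZF/BirA peak and 15 of 35 with an NKT peak, beside 8.37% and 7.18% of all genes. With 50 kb on either side the counts were 30 of 35 and 28 of 35 members, beside 30.3% and 26.3% of all genes. When each peak counted only for its nearest protein-coding gene, 26 and 21 members had a peak, beside 12.4% and 10.5%. Among the top 50% of each list by score, 20 and 19 members had a peak, beside 11.2% and 9.48% of all genes, and among the top 1000 peaks 14 and 13, beside 4.47% and 4.71%. Under the nearest-gene rule Lat lost its peak in both lists, and Txk, Sit1 and Bcl10 lost theirs in the NKT list.

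**Figure D5:**
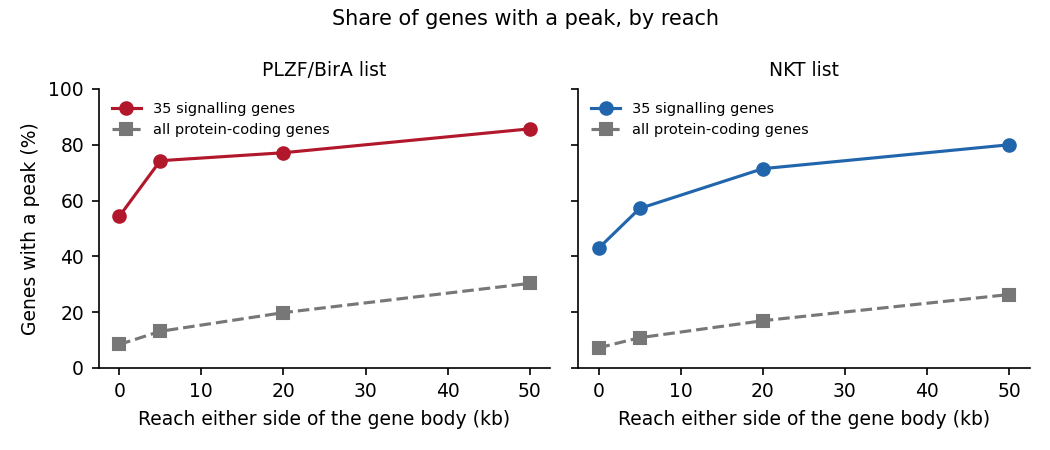
Percent of the 35 genes (solid line) and of all protein-coding genes (dashed line) with a peak in each list, against the reach counted on either side of the gene body (0, 5, 20 and 50 kb). At each reach the members lie above the line of all genes. In the PLZF/BirA list they went from 19 of 35 members against 8.37% of genes for bodies alone to 30 of 35 members against 30.3% at 50 kb.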

How the data were processed

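Streptavidin pull-downs of thymocyte chromatin were sequenced in 2 libraries, 1 per group, and 2 input libraries were not analysed here. Reads were handled with Bowtie, Picard and HOMER on mm10, per the submitters' processing notes. Tool versions, the use of the inputs and any pooling of animals were not given in the sources used here. The deposited lists hold chromosome, start, end, a name beginning with MACS and a score that the authors gave each peak, of unstated definition. Read counts are not used here, so the depth is unknown. Starts were raised by 1 base. Gene spans came from a RefSeq table of GRCm38.p6, and 29 of the 35 members had an entry in the RefSeq promoter table. Peaks were counted by midpoint within 20 kb of a gene body, and peaks of both lists were shared at 1 bp of overlap. Shares have exact Clopper-Pearson 95% intervals. Python 3.11.15, pandas 2.3.3 and scipy 1.17.1 were used, and the counting was tested on simulated data. The members and lists were chosen with earlier results of these data known. Every member with a peak is named, in other lists up to 3 of the highest-scoring genes, of which 1 is not reported here.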

Additional observations from a re-analysis of the deposited data

How the results depend on the processing

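Counts of members with a peak stayed within 1.5 times of those reported with 5 kb or 50 kb of reach, the better-scoring 50% of peaks, the nearest-gene rule, overlapping peaks alone and without Lck. Peak counts of single genes moved more often. Of 70 such counts, 29 left this range with gene bodies alone, 29 with the top 50% and 29 with overlapping peaks alone. With the top 1000 peaks 44 did, with 50 kb 16, with 5 kb 12 and with the nearest-gene rule 12. With gene bodies alone, 15 members had an NKT peak and 11 had one in both lists, and 39 PLZF/BirA and 29 NKT peaks were counted. With the top 1000 peaks of each list, 14 and 13 members had a peak (background 4.47% and 4.71% of all genes), 11 in both, on 21 and 16 peaks. The top 50% by score left 36 and 30 peaks, and overlapping peaks alone left 31 in the PLZF/BirA list. Requiring an overlap of 50% of both peaks lowered the shared percent from 43.7 to 29.6 in the PLZF/BirA list and from 75 to 43.8 in the NKT list, and the top 50% by score raised the first to 63.9. Within 2.5 kb of a gene end lay 27 PLZF/BirA peaks, against 17 within 1 kb. No paired analysis was possible because each group had 1 library. The unknown depth limits what a missing peak shows, since a weaker library lists fewer sites.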

Other observations

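The promoter windows of the members that carried a peak were poor in CpG dinucleotides. The 12 windows of 300 bases touched by a peak in either list, at 9 genes, held a median of 5 CpG (range 0 to 8), and the 6 windows touched in both lists a median of 4. All 45 windows of the members had a median of 8 (range 0 to 43). Over all protein-coding genes, the 274 windows touched by a peak in both lists had a median of 18 (range 0 to 42) and all 21263 windows a median of 13. GC content differed less, with medians of 54.7% for the 12 windows, 52.0% for the 6 and 57.7% for all windows of the members. It was 57.0% for the 274 windows and 56.3% for all 21263. The SP letters GGGCGG were in 21 of the 45 windows of the members and in none of the 6 touched in both lists. They were in 46.0% of the 274 windows and in 46.2% of all 21263, so the 45 and the 274 windows were near the share of all windows. The ETS letters GGAAGT were in 14 of the 45 windows, in 1 of the 6, in 44.2% of the 274 and in 24.8% of all 21263. Windows of 1 gene overlap, as at Themis, and these values were seen before they were described, so they have no test.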
